A study of Homo sapiens with 8 samples.

Results

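The DNAJ proteins, also called HSP40 or J-domain proteins, were followed here at the mRNA level in a glioblastoma cell line. Members were all genes of the expression table whose symbol starts with DNAJA, DNAJB or DNAJC followed by a digit, leaving out 1 antisense name with a hyphen. This gave 38 of 13730 genes, of which 4 were DNAJA, 9 DNAJB and 25 DNAJC. By the textbook location of the protein, 18 were placed in the cytosol or nucleus and 5 in mitochondria. Another 7 were placed in or facing the lumen of the endoplasmic reticulum (ER), and 4 in the ER membrane with the J-domain facing the cytosol. The 7 are called ER lumen members here, also where the protein spans the membrane. The remaining 4 (DNAJC4, DNAJC12, DNAJC22 and DNAJC27) were kept apart as other members. DNAJB3, DNAJB7, DNAJB8, DNAJB13, DNAJC5B, DNAJC5G and DNAJC28 were not analysed here.

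The J-domain is the part by which these proteins bind HSP70 chaperones and stimulate their ATPase, so that HSP70 closes on a client protein. Each compartment has its own HSP70, such as HSPA8 in the cytosol, HSPA5 (BiP) in the ER lumen and HSPA9 in mitochondria, and its own set of J-domain proteins. Some cytosolic members are classical heat shock genes driven by HSF1, while several ER members are targets of the unfolded protein response.

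The cells were LN229-TAZ(4SA), derived from LN229, an established human glioblastoma line, and named for a TAZ(4SA) construct, which all groups carry. The groups were TrxR1 knockout (KO) cells in glucose-deprived medium, control (EV) cells in glucose-deprived medium, KO cells in regular medium and EV cells in regular medium, with 2 RNA-seq libraries each. TrxR1 is the cytosolic thioredoxin reductase encoded by TXNRD1, and the study asks how its loss combines with a lack of glucose. The length of the deprivation, and whether the KO line is 1 clone or the 2 libraries of a group are separate cultures, are not given in the sources used here. The p-values therefore reflect no more than library-to-library spread, possibly technical. Within a group the libraries are named a and b, with no order meant. RNA came from whole cultures, so more RNA per cell and more cells holding it cannot be told apart.

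Levels are read counts scaled to library size (CPM), and reads summed over the table were 70083018 to 107229069 per library, so that 1 read was worth 0.00948 to 0.0143 CPM. The columns taken as glucose-deprived end in GlcN, which the labels do not explain. These letters also abbreviate glucosamine, so every value given here as glucose deprivation rests on reading the suffix as the glucose-deprived medium of the labels. TXNIP, a gene that glucose induces, was at 8.43 to 11.04 CPM in those columns and 77.3 to 87.1 CPM in the others. TXNRD1 averaged 361 ± 13.8 CPM in KO and 501 ± 11.3 CPM in EV cells without glucose (SD, n = 2 each), a limma log2 fold change of -0.47 with adjusted p = 1.97e-05. In regular medium it averaged 247 ± 3.26 CPM in KO and 262 ± 1.53 CPM in EV cells, and that difference did not pass the test (limma adjusted p = 0.192). This mRNA level does not show whether the protein is lost, so KO stands for the label. Of the glioma markers, VIM was at 2897 to 3696 CPM and CD44 at 996 to 1185 CPM, while the astrocyte gene GFAP was at 0.675 to 1.41 CPM. Other glioma markers differed more between groups: SOX2 averaged 15.1 CPM in KO and 16.8 CPM in EV cells without glucose, against 38.7 CPM in KO and 55.1 CPM in EV cells in regular medium. NES averaged 436 CPM in KO and 386 CPM in EV cells without glucose, against 853 CPM in KO and 788 CPM in EV cells in regular medium. OLIG2 averaged 16.1 CPM in KO and 14.7 CPM in EV cells without glucose, against 6.44 CPM in KO and 6.195 CPM in EV cells in regular medium. Of the markers of other cells, PTPRC, EPCAM, KRT5, PECAM1, CDH5 and MBP were not analysed here, RBFOX3 was at 0.215 to 1.09 CPM, and CD68 was at 46.6 and 52.9 CPM on average in KO and EV cells without glucose, against 25.2 CPM in KO and 25.5 CPM in EV cells in regular medium. CD68, a lysosomal gene also used as a macrophage marker, moved with the medium, as did SOX2, NES and OLIG2, and their part in the results was not tested.

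Glucose deprivation was followed by changes in both directions. The ER lumen members rose, apart from DNAJC16 in KO cells, and the greatest rise was that of DNAJB9, about 12.3-fold in KO cells and 10.6-fold in EV cells. Of the 18 cytosolic or nuclear members, 6 rose and 10 fell in KO cells and 7 rose and 10 fell in EV cells, where 36.5% of all tested genes rose and 36.8% fell in KO cells and 37.5% rose and 38.7% fell in EV cells. No test compared the compartments. TrxR1 knockout added a change in a few cytosolic members, of which DNAJB1 was 3.93-fold higher in KO than in EV cells without glucose but 1.10-fold in regular medium. DNAJA1, DNAJB4, DNAJB6 and, close to the threshold, DNAJC2 also had a KO effect that differed between the media, while DNAJB5 was lower in KO in both media.

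Changes were tested with limma on the deposited log2 CPM of the 13057 genes with a mean of at least 0, and a gene was called at a Benjamini-Hochberg adjusted p under 0.05 over all of them. A linear fold is the ratio of group means, and other changes are on the log2 scale. Of the 38 members 37 were tested. DNAJA3, a mitochondrial member, was below that level, with 18 and 32 reads in KO and 13 and 9 reads in EV cells without glucose, and 222 and 16 reads in KO and 6 and 13 reads in EV cells in regular medium. KO library a in regular medium stood apart from the other 7 libraries, and no comparison was made for DNAJA3. The comparisons share groups with each other, so they are given side by side and are not independent.

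In KO against EV cells without glucose, 8 of 37 members were higher and 4 lower, while 9.04% of all tested genes were called higher and 10.6% lower. The count is 21.6% of the members for the higher calls and 10.8% for the lower ones. In regular medium 3 members were higher and 3 lower, each 8.11% of the members, where 3.87% of all genes were higher and 3.38% lower. The interaction, which is the KO effect without glucose minus the KO effect in regular medium, was called higher for 5 members and lower for 0, where 2.31% of all genes were called higher and 2.01% lower. At an unadjusted p under 0.05 the limma interaction was higher for 9 members and lower for 3. In either direction, 3164 of all 13057 tested genes were under that p. Limma with voom weights on whole reads called 4 members higher and 0 lower, and 506 of all genes.

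Glucose deprivation in KO cells raised 17 members and lowered 14, where 36.5% of all genes were higher and 36.8% lower. In EV cells it raised 20 and lowered 12, where 37.5% of all genes were higher and 38.7% lower. The shares of members, 45.9% higher and 37.8% lower in KO cells and 54.1% and 32.4% in EV cells, lie near the background for the lower calls. The median log2 fold change of the members was 0.14 in KO and 0.13 in EV cells, beside -0.0015 and -0.011 over all genes tested. In both cell types 15 members were called higher and 12 lower, and 0 were called in opposite directions. Calls shared by both cell types were not counted over all genes, so these counts have no background beside them.

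**Figure D1:**
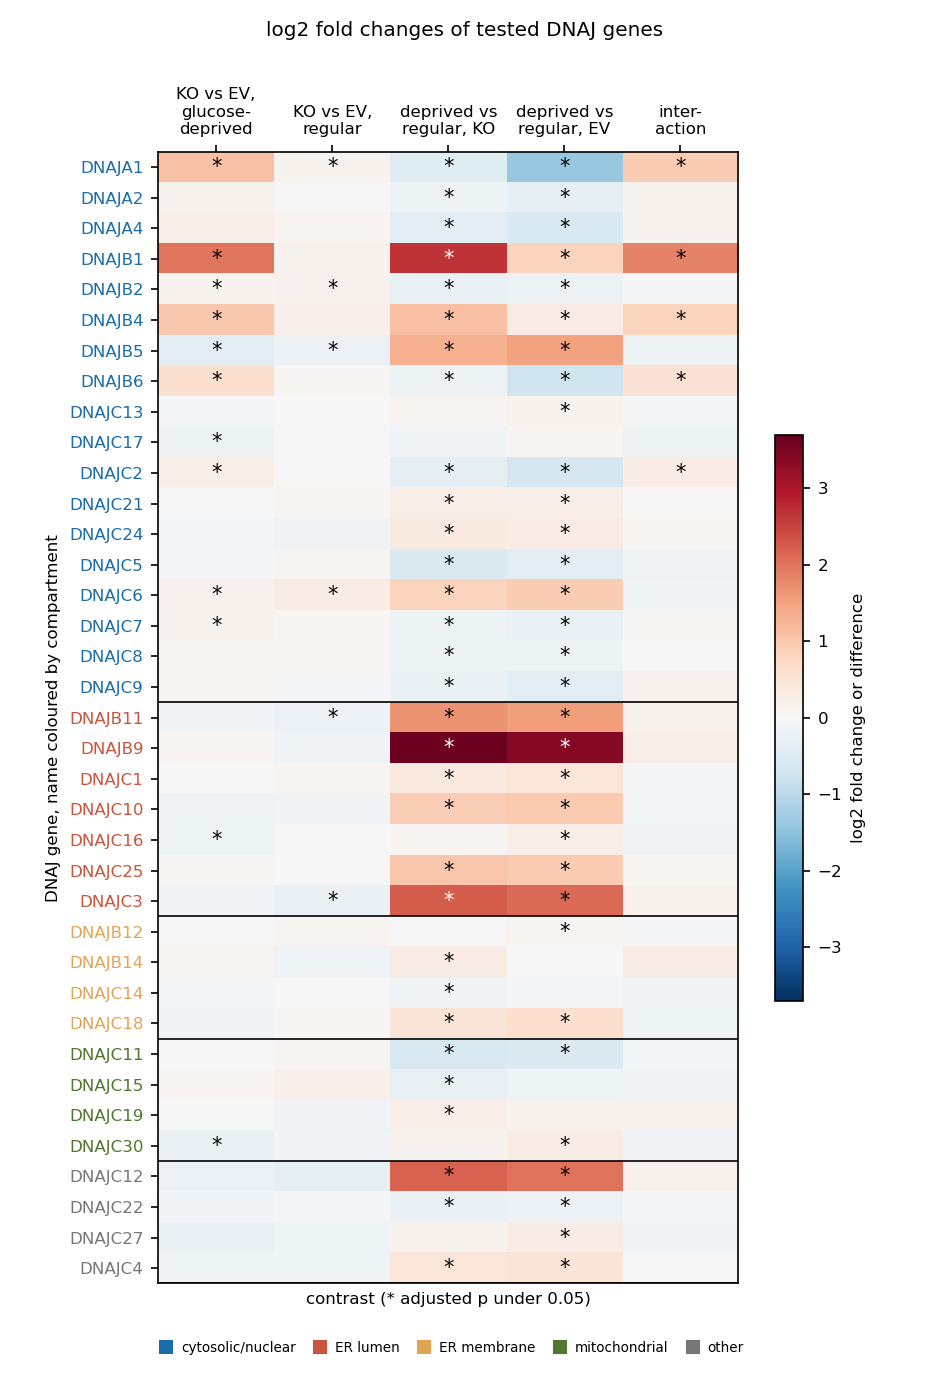
log2 fold changes of the 37 tested DNAJ genes (rows, grouped by compartment) in 5 contrasts (columns), with colour for the change and a star for an adjusted p under 0.05. Under glucose deprivation the ER lumen genes range from strong red for DNAJB9 (3.62 in KO cells) to near white for DNAJC16 (0.09 in KO cells, no star). The 5 stars of the interaction are among the cytosolic genes.

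DNAJB1, the class B J-domain protein that works with inducible cytosolic HSP70 (GRCh38 chromosome 19, 14514770 to 14529770, minus strand, protein-coding), showed the largest knockout effect of the family. It had 1447 and 1532 CPM in KO and 386 and 372 CPM in EV cells without glucose, against 238 and 231 CPM in KO and 213 and 214 CPM in EV cells in regular medium. The 2 KO libraries without glucose thus stand far above all others, and the groups do not overlap in either medium. The KO effect was 1.98 ± 0.037 (log2, SE) without glucose (limma adjusted p = 8.3e-10) and 0.14 ± 0.037 in regular medium, where it missed the threshold (limma adjusted p = 0.0519). The regular-medium effect did pass in some other settings. Among them were a filter at a mean log2 CPM of at least 2 and median-of-ratios scaling (limma adjusted p = 0.0472 and 0.0425). The interaction was 1.84 ± 0.052 with limma adjusted p = 4.47e-08. Deprivation raised it by 2.67 in KO and 0.83 in EV cells (limma adjusted p = 3.81e-12 and 1.2e-08). The kit does not mark strand, and DNAJB1 overlaps TECR on the other strand over 12686 bases, so reads of the 2 genes could be mixed there.

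DNAJA1, a farnesylated class A J-domain protein (chromosome 9, 33025211 to 33039907, plus strand), moved the other way under deprivation. It had 382 and 367 CPM in KO and 176 and 178 CPM in EV cells without glucose, against 499 and 524 CPM in KO and 463 and 467 CPM in EV cells in regular medium. All 4 libraries without glucose lie below the 4 in regular medium, but the fall is much smaller in KO cells. Deprivation changed it by -0.45 in KO and -1.40 in EV cells, and the interaction was 0.95 ± 0.050 (limma adjusted p = 4.06e-06). The KO effect was 1.08 ± 0.035 without glucose (limma adjusted p = 4.13e-08) and 0.14 ± 0.035 in regular medium (limma adjusted p = 0.0444). The regular-medium call was lost in 7 of 15 other settings, among them without EV regular library a or b (0.13 and 0.14, limma adjusted p = 0.299 and 0.227), EV glucose-deprived library a or b (limma adjusted p = 0.0913 and 0.0919) and KO regular library b (0.10, limma adjusted p = 0.135). The annotation holds 6 processed pseudogenes of DNAJA1, whose reads could be counted with it.

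DNAJB4, a class B relative of DNAJB1 (chromosome 1, 77979175 to 78017964, plus strand), had 44.0 and 42.0 CPM in KO and 21.1 and 21.9 CPM in EV cells without glucose, against 18.7 and 20.7 CPM in KO and 17.2 and 17.4 CPM in EV cells in regular medium. The KO libraries without glucose are again above all others. Its KO effect was 1.00 ± 0.057 without glucose (limma adjusted p = 2.33e-06) and 0.18 ± 0.057 in regular medium (limma adjusted p = 0.0809, not called). The interaction was 0.82 ± 0.080 (limma adjusted p = 0.000472). It overlaps GIPC2 on the same strand over 38423 bases.

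DNAJB6, which keeps aggregation-prone proteins soluble (chromosome 7, 157335381 to 157417439, plus strand), had 119 and 124 CPM in KO and 82.3 and 79.7 CPM in EV cells without glucose, against 138 and 140.2 CPM in KO and 140.0 and 131 CPM in EV cells in regular medium. The media separate in EV cells and less in KO cells, and KO and EV overlap in regular medium. Its KO effect was 0.58 ± 0.041 without glucose (limma adjusted p = 1.3e-05) and 0.04 ± 0.041 in regular medium (limma adjusted p = 0.622). The interaction was 0.55 ± 0.059 (limma adjusted p = 0.000778).

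DNAJC2, the ribosome-bound J-domain protein known as MPP11, had 52.5 and 52.2 CPM in KO and 44.0 and 43.5 CPM in EV cells without glucose, against 62.7 and 69.3 CPM in KO and 66.7 and 66.8 CPM in EV cells in regular medium. Its interaction of 0.27 ± 0.067 was close to the threshold (limma adjusted p = 0.0491), and 10 of 14 other settings lost that call, with limma adjusted p up to 0.199. It is lost without KO glucose-deprived library b (0.0883), EV glucose-deprived library a (0.155) or b (0.172), KO regular library a (0.0718), and EV regular library a (0.199) or b (0.166), as limma adjusted p. Its KO effect without glucose was 0.26 ± 0.048 (limma adjusted p = 0.00503) and missed the threshold without EV glucose-deprived library b (0.25, limma adjusted p = 0.0522). DNAJC2 overlaps PMPCB on the other strand over 17038 bases.

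**Figure D2:**
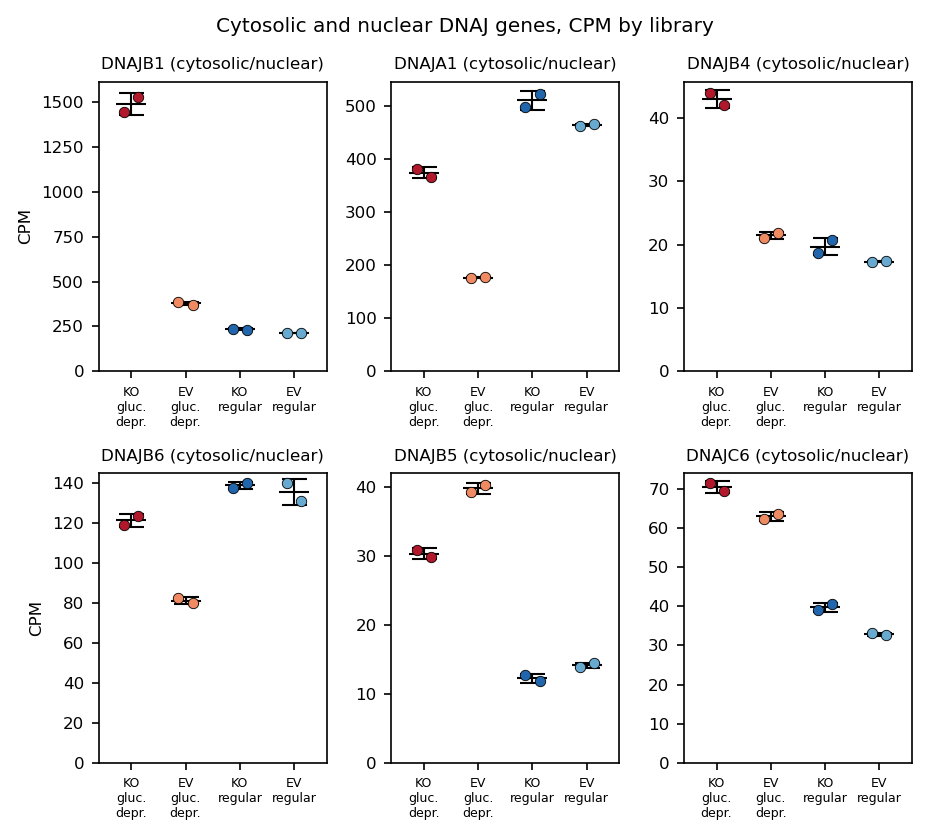
CPM of 6 cytosolic or nuclear DNAJ genes in each library (points), with the group mean and SD (bars), in 4 groups. The KO libraries without glucose are highest for DNAJB1 (1447 and 1532 CPM) and DNAJB4 (44.0 and 42.0 CPM), while DNAJB5 is highest in EV libraries without glucose (39.2 and 40.3 CPM).

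Promoter sequence is shown for DNAJB1, DNAJA1, DNAJB4 and DNAJB6, which are 4 of the 5 members called in the interaction. DNAJC2, the remaining one, is not printed, and its promoter held neither of the 2 patterns described next. RefSeq promoters (GRCh38.p14, 250 bases before to 50 after a start) were found for 35 of the 38 members. They were searched on both strands for the pair GAANNTTC or TTCNNGAA, which holds 2 of the units bound by HSF1, and for a heat shock element of 3 alternating units NGAAN and NTTCN, which contains such pairs. In the lines that follow, capitals mark the matches found.

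DNAJB1: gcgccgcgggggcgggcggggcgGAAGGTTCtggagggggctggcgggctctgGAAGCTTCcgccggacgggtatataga
DNAJA1: ggcgcgccgggcGGAACTTTCCAGAACgct
DNAJB4: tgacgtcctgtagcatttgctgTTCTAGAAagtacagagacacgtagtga
DNAJB6: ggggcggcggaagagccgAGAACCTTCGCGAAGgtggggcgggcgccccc

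The DNAJB1 stretch is chr19:14518418-14518497 (minus strand, -100 to -21 from the start numbered 2 of 3 in the table), and holds 2 pairs. The DNAJA1 stretch is chr9:33025263-33025292 (plus strand, -10 to 20) and holds the element. The DNAJB4 stretch is chr1:78004819-78004868 (plus strand, -120 to -71, start 2 of 2), and the DNAJB6 stretch is chr7:157336854-157336903 (plus strand) and holds the element. The heat shock element was in 2 of 35 members (5.71%), DNAJA1 and DNAJB6, beside 0.449% of the 10461 tested genes with a promoter. The pair was in 7 of 35 members (20%), DNAJA1, DNAJA4, DNAJB1, DNAJB4, DNAJB6, DNAJC6 and DNAJC15, beside 13.9% of those genes. A match is a description of the letters and not a site in use, and members with several starts had more letters searched.

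DNAJB5, DNAJC6 and DNAJB2 were called between KO and EV in both media but not in the interaction. DNAJB5, a class B member, was the only member called lower in KO in both media, with 30.8 and 29.8 CPM in KO and 39.2 and 40.3 CPM in EV cells without glucose, against 12.7 and 11.8 CPM in KO and 13.9 and 14.4 CPM in EV cells in regular medium. Its KO effect was -0.39 ± 0.054 without glucose (limma adjusted p = 0.000991) and -0.21 ± 0.054 in regular medium (limma adjusted p = 0.0459). Deprivation raised it by 1.31 in KO and 1.49 in EV cells, so its knockout effect and its deprivation effect point in opposite directions. The regular-medium call of DNAJB5 was lost in 10 of 15 other settings, with limma adjusted p up to 0.279, among them without either EV library of either medium or KO regular library b (-0.15, limma adjusted p = 0.14), and the call without glucose was kept in all 15. DNAJC6, the auxilin that helps HSP70 strip clathrin from vesicles, was higher in KO in both media, with 71.6 and 69.4 CPM in KO and 62.2 and 63.7 CPM in EV cells without glucose, against 39.0 and 40.6 CPM in KO and 33.1 and 32.6 CPM in EV cells in regular medium. Its KO effect was 0.16 ± 0.041 without glucose (limma adjusted p = 0.0195) and 0.28 ± 0.041 in regular medium (limma adjusted p = 0.00336), and deprivation raised it by 0.83 in KO and 0.94 in EV cells. The DNAJC6 call without glucose was lost without KO glucose-deprived library a (limma adjusted p = 0.0635) or EV glucose-deprived library a or b (0.143 and 0.0831), and that in regular medium without EV regular library b (0.0566).

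DNAJB2, a J-domain protein with ubiquitin-binding motifs, was higher in KO by 0.12 without glucose and 0.15 in regular medium (limma adjusted p = 0.0411 and 0.0278). DNAJC7, which binds HSP70 and HSP90 through its TPR repeats, was higher by 0.13 without glucose (limma adjusted p = 0.0456). DNAJC17, a splicing-related member, had a log2 change of -0.18 without glucose (limma adjusted p = 0.0484). Each of these 4 calls was lost in 7 or 8 of 15 other settings. Without glucose all 3 genes lost it when either EV library of either medium was left out, with limma adjusted p up to 0.25 for DNAJB2, 0.222 for DNAJC7 and 0.214 for DNAJC17. KO glucose-deprived library a also decided DNAJB2 (0.0873) and DNAJC7 (0.165), and library b DNAJB2 (0.0821) and DNAJC17 (0.223), as limma adjusted p. In regular medium DNAJB2 lost its call without any library other than the KO glucose-deprived ones, with limma adjusted p from 0.058 to 0.223.

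Under deprivation 6 of 18 cytosolic or nuclear members rose and 10 fell in KO cells (33.3% and 55.6%, beside 36.5% and 36.8% of all genes), and 7 rose and 10 fell in EV cells (38.9% and 55.6%, beside 37.5% and 38.7%). The same 10 genes fell in both. Besides DNAJA1, DNAJB6 and DNAJC2 they were DNAJA2, DNAJA4, DNAJB2, DNAJC5, DNAJC7, DNAJC8 and DNAJC9. The largest of these 7 falls was that of DNAJC5, the cysteine string protein of secretory vesicles, at -0.52 in KO cells, and of DNAJA4 at -0.55 in EV cells. DNAJA4, a class A member, was the lowest tested one, with 1.17 and 1.18 CPM in KO and 1.01 and 0.975 CPM in EV cells without glucose, against 1.53 and 1.61 CPM in KO and 1.36 and 1.57 CPM in EV cells in regular medium. The fall of DNAJA4 in KO cells was lost without any KO library (limma adjusted p from 0.0557 to 0.0979), that in EV cells without EV regular library b (0.053), and that of DNAJA2 in KO cells without KO library b of either medium (0.0582 and 0.0674). DNAJC21, a ribosome biogenesis factor, and DNAJC24, which works in diphthamide synthesis, rose in KO by 0.23 and 0.34 and in EV by 0.25 and 0.30. DNAJC13, an endosomal member, measured 0.07 in KO cells, where it did not pass (limma adjusted p = 0.0835), and rose by 0.13 in EV cells. That rise was no longer called, at 0.12, without EV regular library a. The difference between the cell types was -0.05 for DNAJC13 and did not pass (limma interaction adjusted p = 0.572).

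The ER lumen members rose under deprivation, with 1 exception in KO cells. In KO cells 6 of 7 were called higher and in EV cells 7 of 7, with medians of 1.03 in KO and 0.97 in EV cells on the log2 scale. Over all tested genes 36.5% were called higher in KO cells and 37.5% in EV cells. DNAJB9 (ERdj4), a BiP co-chaperone tied to ER-associated degradation (chromosome 7, 108569568 to 108574850, plus strand), had 126 and 134 CPM in KO and 125 and 122 CPM in EV cells without glucose, against 10.8 and 10.4 CPM in KO and 11.7 and 11.7 CPM in EV cells in regular medium. The media do not overlap and the cell types are close within each. Its deprivation effect was 3.62 ± 0.045 in KO and 3.40 ± 0.045 in EV cells (limma adjusted p = 1.92e-12 and 3.23e-12).

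DNAJC3 (P58IPK), a client-binding co-chaperone of BiP also known as an inhibitor of the eIF2 kinase PERK (chromosome 13, 95677139 to 95794989, plus strand), had 285 and 273 CPM in KO and 298 and 298 CPM in EV cells without glucose, against 56.4 and 60.8 CPM in KO and 70.0 and 69.4 CPM in EV cells in regular medium. DNAJB11 (ERdj3), a soluble co-chaperone that binds unfolded clients (chromosome 3, 186567403 to 186585800, plus strand), had 304 and 302 CPM in KO and 329.7 and 318 CPM in EV cells without glucose, against 93.3 and 98.6 CPM in KO and 113 and 109 CPM in EV cells in regular medium. In both genes the KO libraries were below the EV libraries in each medium without overlap. Without glucose the KO effects were -0.09 each and did not pass (limma adjusted p = 0.137 for DNAJC3 and 0.111 for DNAJB11). In regular medium they were -0.25 ± 0.041 for DNAJC3 and -0.21 ± 0.038 for DNAJB11 (limma adjusted p = 0.00631 and 0.0104), so both were lower in KO there. The difference between media was 0.16 for DNAJC3 and 0.12 for DNAJB11 and did not pass (limma interaction adjusted p = 0.14 and 0.216). The regular-medium call of each was lost without EV regular library a (limma adjusted p = 0.0868 for DNAJC3 and 0.146 for DNAJB11) or b (0.0665 and 0.0675).

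DNAJC10 (ERdj5), a disulfide reductase of ER-associated degradation, had 236 and 223 CPM in KO and 262 and 243 CPM in EV cells without glucose, against 116 and 128 CPM in KO and 129.8 and 129.6 CPM in EV cells in regular medium. DNAJC25, an ER member of the same class by location, had 20.8 and 20.4 CPM in KO and 20.03 and 19.6 CPM in EV cells without glucose, against 10.4 and 9.73 CPM in KO and 10.4 and 9.91 CPM in EV cells in regular medium. The media do not overlap for either gene. Deprivation raised DNAJC10 by 0.92 in KO and 0.96 in EV cells, and DNAJC25 by 1.03 in KO and 0.97 in EV cells. DNAJC1 (ERdj1) rose by 0.37 in KO and 0.45 in EV cells. DNAJC16 measured 0.09 in KO cells (limma adjusted p = 0.0951) and rose by 0.24 in EV cells (limma adjusted p = 0.000817), and it was lower in KO without glucose by a log2 change of -0.15 (limma adjusted p = 0.0476), a call that leaving out any glucose-deprived or EV regular library ended (limma adjusted p from 0.0681 to 0.255). Of the 7 ER lumen members 0 were called in the limma interaction, where 2.31% of all genes were called higher and 2.01% lower. At an unadjusted p under 0.05 limma gave 2 higher and 0 lower, and voom called 0. In either direction, 3164 of all 13057 tested genes were under that p in the limma interaction. The largest of these differences was 0.22 for DNAJB9, with a 95% interval of 0.07 to 0.36 (limma adjusted p = 0.0833).

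**Figure D3:**
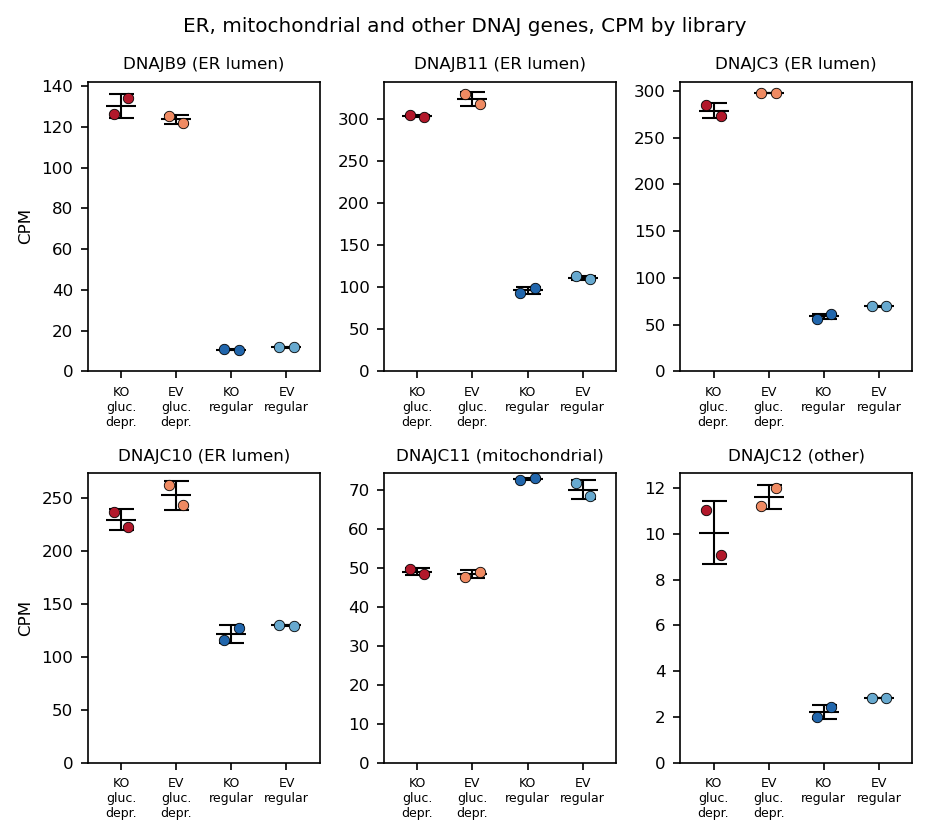
CPM of 4 ER lumen genes, the mitochondrial DNAJC11 and DNAJC12 of the other members in each library (points), with the group mean and SD (bars), in 4 groups. DNAJB9 lies at 122 to 134 CPM in all 4 libraries without glucose and at 10.4 to 11.7 CPM in regular medium, while DNAJC11 is higher in regular medium.

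Promoter stretches of DNAJB9 and DNAJC3 show the letters CCACG (capitals, either strand), part of the ER stress element, which needs CCAAT and CCACG 9 bases apart. This shorter search was added after the values and the promoters had been seen.

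DNAJB9: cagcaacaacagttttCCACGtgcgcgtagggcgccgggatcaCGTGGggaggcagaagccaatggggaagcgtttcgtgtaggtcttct
DNAJC3: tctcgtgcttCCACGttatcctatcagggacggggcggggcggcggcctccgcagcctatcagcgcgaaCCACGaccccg

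The DNAJB9 stretch is chr7:108569784-108569873 (plus strand, -90 to -1) and the DNAJC3 stretch chr13:95676949-95677028 (plus strand). The full ER stress element was in 0 of 35 members, beside 0.153% of the tested genes with a promoter. CCACG was in 24 of 35 members (68.6%), 4 of 6 ER lumen ones among them, beside 57.2% of the tested genes. The ATF4-CEBP composite TGATGNAA was in 1 of 35 members (2.86%, DNAJA4) beside 2.77% of those genes, and the antioxidant response element TGACNNNGC in 4 of 35 (11.4%) beside 19.5%.

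Of the 4 ER membrane members, whose J-domains face the cytosol, 2 rose and 1 fell under deprivation in KO cells, and 2 rose and 0 fell in EV cells. Over all tested genes 36.5% rose and 36.8% fell in KO cells, and 37.5% rose and 38.7% fell in EV cells. DNAJC18 had 16.6 and 14.5 CPM in KO and 16.9 and 16.7 CPM in EV cells without glucose, against 11.3 and 11.2 CPM in KO and 11.1 and 10.7 CPM in EV cells in regular medium, and rose by 0.46 in KO and 0.62 in EV cells. DNAJB14 rose by 0.26 in KO cells (limma adjusted p = 0.00289), and its value in EV cells was -0.005 (limma adjusted p = 0.944); the difference between them, 0.27 ± 0.088, did not pass (limma adjusted p = 0.107). DNAJC14 fell by 0.14 in KO cells and measured -0.04 in EV cells, and DNAJB12 measured 0.006 in KO cells (limma adjusted p = 0.885) and rose by 0.09 in EV cells, a call that leaving out any EV library ended (limma adjusted p from 0.0853 to 0.185). Of the 4, 0 were called between KO and EV in either medium. Over all genes 9.04% were called higher and 10.6% lower without glucose, and 3.87% and 3.38% in regular medium. Limma at an unadjusted p under 0.05 gave 1 of the 4 lower in each medium, and voom called 0. Of all 13057 tested genes, 4458 were under that p without glucose and 3107 in regular medium.

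The 4 tested mitochondrial members did not move as a group. DNAJC11, which belongs to the mitochondrial intermembrane space bridging complex, had 49.6 and 48.3 CPM in KO and 47.5 and 49.0 CPM in EV cells without glucose, against 72.5 and 72.9 CPM in KO and 71.8 and 68.3 CPM in EV cells in regular medium. It fell by 0.57 in KO and by 0.54 in EV cells (limma adjusted p = 4.12e-07 and 5.8e-07). DNAJC15, an inner-membrane relative of the import motor, fell by 0.28 in KO cells and measured -0.17 in EV cells (limma adjusted p = 0.0955). DNAJC19, of the import motor, rose by 0.25 in KO cells and measured 0.12 in EV cells (limma adjusted p = 0.0701), but 9 processed pseudogenes could share its reads. DNAJC30 measured 0.14 in KO cells (limma adjusted p = 0.0667), rose by 0.28 in EV cells and was lower in KO without glucose, by a log2 change of -0.25 (limma adjusted p = 0.0191), a call lost without KO glucose-deprived library a (-0.22, limma adjusted p = 0.0678) or EV glucose-deprived library b (-0.18, limma adjusted p = 0.169). The interactions of DNAJC15, DNAJC19, DNAJC30, DNAJB12 and DNAJC14 did not pass (limma adjusted p from 0.279 to 0.61), so no difference between KO and EV cells in their response was shown.

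Of the other members, DNAJC12, a co-chaperone of the aromatic amino acid hydroxylases, had 11.03 and 9.08 CPM in KO and 11.2 and 12.0 CPM in EV cells without glucose, against 2.0 and 2.43 CPM in KO and 2.84 and 2.84 CPM in EV cells in regular medium. It rose by 2.17 ± 0.116 in KO and 2.02 ± 0.116 in EV cells (limma adjusted p = 4.73e-08 and 7.33e-08), and its KO effects of -0.21 without glucose and -0.36 in regular medium were not called (limma adjusted p = 0.224 and 0.0884). DNAJC4 rose by 0.46 in KO and 0.47 in EV cells. DNAJC22 fell by 0.26 in KO and by 0.20 in EV cells, and DNAJC27 measured 0.14 in KO cells (limma adjusted p = 0.176) and rose by 0.28 in EV cells. For DNAJC27 the difference between the cell types was -0.13 and did not pass (limma interaction adjusted p = 0.577). The EV call of DNAJC22 was lost without EV glucose-deprived library a (limma adjusted p = 0.054), and that of DNAJC27 without EV glucose-deprived library b (0.0986) or EV regular library a (0.132).

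**Figure D4:**
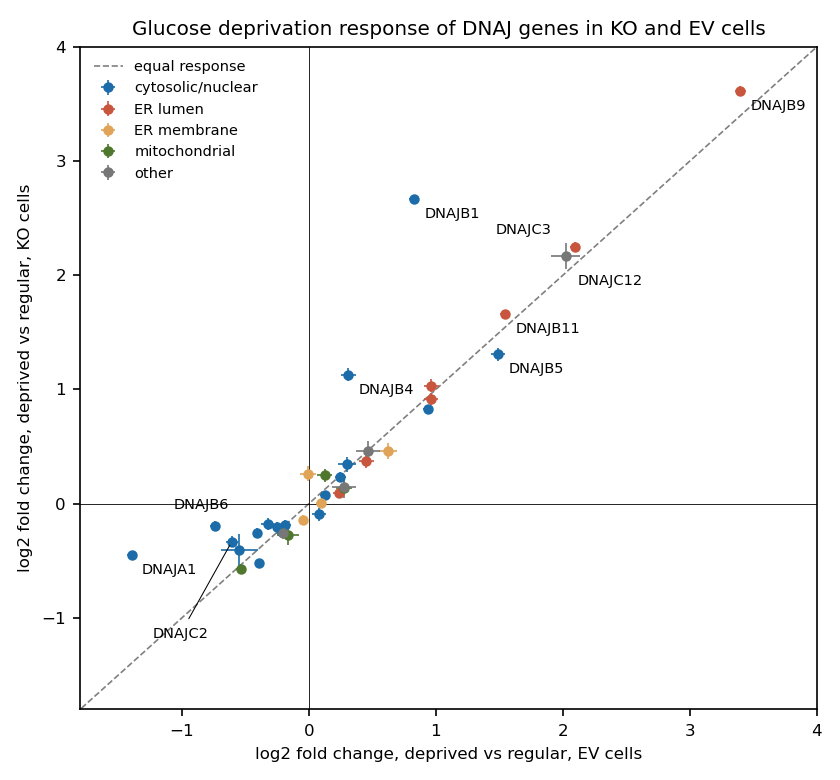
log2 fold change of each tested DNAJ gene without glucose against regular medium, in KO cells (vertical) and EV cells (horizontal), with SE bars and a dashed line of equal response. DNAJB1 (2.67 in KO, 0.83 in EV), DNAJB4, DNAJA1, DNAJB6 and DNAJC2 lie above the line, and the ER lumen genes lie along it.

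For a rough comparison between genes, levels were divided by the length in kilobases (kb) of the longest coding transcript (GENCODE release 29). Which transcripts the cells use was not tested. DNAJC10 was divided by 20129 bases, so 230 CPM in KO and 253 CPM in EV cells without glucose became 11.4 and 12.5 CPM per kb. The sums and shares that follow depend on this choice. Summed over the 38 members, CPM per kb was 1552 and 1567 in KO and 975 and 962 in EV cells without glucose, against 891 and 913 in KO and 873 and 868 in EV cells in regular medium. DNAJB1 was the highest member without glucose, at 41.2 and 43.2% of that sum in KO and 17.5 and 17.1% in EV cells. In regular medium it was 11.8 and 11.2% in KO and 10.7 and 10.9% in EV cells, and DNAJA1 was highest. Cytosolic or nuclear members summed to 1169 and 1186 in KO and 574 and 567 in EV cells without glucose, against 701 and 720 in KO and 671 and 668 in EV cells in regular medium. Within these sums DNAJB1 averaged 658 in KO and 167 in EV cells without glucose, against 104 and 94.2 in regular medium. In KO cells its rise from regular medium is larger than that of the cytosolic sum. ER lumen members summed to 274 and 272 in KO and 288 and 280 in EV cells without glucose, against 84.9 and 90.2 in KO and 96.8 and 94.7 in EV cells in regular medium. The ER membrane, mitochondrial and other sums ranged from 18.5 to 47.3 over all libraries.

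**Figure D5:**
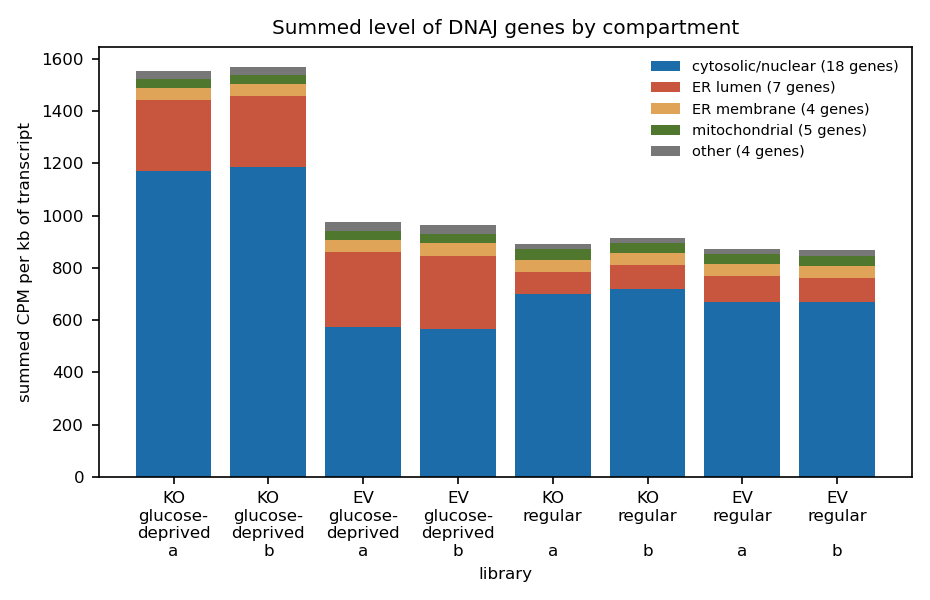
Summed CPM per kb of transcript of the 38 DNAJ genes in each of 8 libraries, stacked by compartment. The 2 KO libraries without glucose reach 1552 and 1567, and the cytosolic part alone is 1169 and 1186 there. DNAJB1 averages 658 CPM per kb within that part.

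The partners of these proteins were counted beside them. Of 8 tested HSP70 genes, 6 were higher and 2 lower in KO without glucose, against 1 higher and 1 lower in regular medium. Over all genes 9.04% were higher and 10.6% lower without glucose, and 3.87% and 3.38% in regular medium. HSPA1A, HSPA1B, HSPA1L and HSPA2 were listed as partners but not analysed here. HSPA6, a strictly stress-inducible cytosolic HSP70, had 693 and 775 CPM in KO and 92.8 and 80.3 CPM in EV cells without glucose, against 5.53 and 5.03 CPM in KO and 2.96 and 2.88 CPM in EV cells in regular medium, with an interaction of 2.24 ± 0.109 (limma adjusted p = 2.44e-06). HSPA8, the constitutive cytosolic HSP70, fell by 0.79 in KO and by 1.35 in EV cells, and HSPA5, the ER one, rose by 3.41 in KO and 3.19 in EV cells. Of 11 nucleotide exchange factors, which reset HSP70, 5 were higher and 2 lower in KO without glucose. The cytosolic HSPH1 and BAG3 were among them, with interactions of 1.63 and 1.32 (limma adjusted p = 4.47e-08 and 1.24e-06), and the ER factor HYOU1 was lower in KO by a log2 change of -0.31. Of 4 tested J-domain proteins with other names, SEC63 of the ER translocon rose by 0.87 in KO and 0.91 in EV cells, and HSCB, of iron-sulfur cluster assembly, by 0.71 and 0.75.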

How the data were processed

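RNA-seq of 8 libraries was analysed from the table the authors deposited, in log2 CPM. Per the labels' protocols, RNA was extracted with TRIzol and libraries made with a SMART-Seq mRNA HT kit and Nextera XT, which does not mark strand. The submitters' processing notes name HISAT2, edgeR and the build GRCh38, with no versions. The counting tool, annotation and gene filter are not given in the sources used here. The log2 scale was read from the deposited values: 2 to the power of a value, less an offset of 0.023 CPM, was a whole multiple of 1 read for 100% of genes within a tolerance of 0.05. Columns carry the group but no replicate number. Samples were grouped by the labels, and 0 columns were left unused. Intervals are limma's, from the spread between libraries.

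limma 3.58.1 in R 4.3.3 was fitted to all 8 libraries as 4 groups, with a variance trend, 4 residual and 6.29 prior degrees of freedom, two-sided p adjusted by Benjamini-Hochberg, and filter at a mean log2 CPM of 0. Steps were tested on simulated counts, with a spread taken from this same fit and libraries drawn as independent. Such counts cannot show whether the p-values hold if the libraries of a group are technical replicates. Alternatives were another filter, scaling, no trend, a pseudocount of 1, voom, only the contrast's groups and each library left out. Members called with a change of 1 or more in log2, the next by adjusted p in each compartment, and opposite movers are given by library. Members, lists and tests were chosen with earlier results of these data known. Compartments are textbook assignments.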

Additional observations from a re-analysis of the deposited data

Results flagged for a closer look

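In 5 members the KO effect differed between the media, by the interaction test across all genes. They are 13.5% of the members, where 2.31% of all tested genes were called higher and 2.01% lower. The difference (log2, without glucose minus regular medium) was 1.84 ± 0.052 for DNAJB1 (limma adjusted p = 4.47e-08), 0.95 ± 0.050 for DNAJA1 (4.06e-06), 0.82 ± 0.080 for DNAJB4 (0.000472), 0.55 ± 0.059 for DNAJB6 (0.000778) and 0.27 ± 0.067 for DNAJC2 (0.0491). All 5 differences were positive, and both KO libraries lay above both EV libraries without glucose. The same values entered the interaction, so that separation adds no support. Of the 37 tested members, 31 had no overlap in that contrast in either direction, and this was not counted over all genes. The DNAJC2 call was lost in 10 of 14 other settings.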

How the results depend on the processing

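Of 100 gene-by-contrast values, 21 lost their call in at least 1 setting tried, most of them KO against EV effects. All 6 KO against EV calls in regular medium were among these 21. The other 79 lost none, but some of them were uncalled KO effects of named members, which had no call to lose. Some of those uncalled effects gained a call in at least 1 setting. They were DNAJB1, DNAJB4 and DNAJC12 in regular medium and DNAJC10 without glucose. No paired analysis was possible because the columns carry no replicate numbers. A fit of only the contrast's groups was not possible for the interaction, and DNAJA4 had no value at a mean log2 CPM of at least 2. Calls of DNAJB1, DNAJA1, DNAJB4 and DNAJB6 in KO without glucose and in the interaction were kept in every setting. KO against EV in regular medium gave 6 members, but 2 without the variance trend and 0 to 7 when 1 library was left out. It was 0 without EV regular library b (limma, 11 members at an unadjusted p under 0.05), 1 without EV regular library a, and 3 without EV glucose-deprived library a or b. With median-of-ratios scaling it was 4 higher and 2 lower, against 3 and 3. The count over all tested genes moved with the settings too, also when 1 library was left out. For KO against EV in either medium, it fell along with the member count whenever an EV library was left out. Such a drop is therefore not particular to the members. In regular medium it was 946 in the main fit, 433 without the trend and 1001 with median-of-ratios scaling. For KO against EV without glucose it was 2561 in the main fit, 1839 without the trend and 2019 with only its groups. KO against EV without glucose gave 12 members, and 5 to 14 with 1 library left out (5 without EV glucose-deprived library b, 7 without a), and 8 without the trend or with only its groups. Deprivation gave 29 to 31 in KO and 30 to 32 in EV cells with 1 library left out, and the interaction 4 to 7. Signs turned only among uncalled KO effects in regular medium, with 1 library left out: DNAJC2 ranged from -0.089 to 0.055 (highest without KO regular library a), DNAJB6 from -0.011 (without EV regular library b) to 0.086, and DNAJC25 from -0.060 to 0.034, positive without KO regular library b (0.034) or EV regular library a (0.020). The cause was not tested.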
